A study of Homo sapiens with 12 samples.

Results

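The genes described here are the human metalloproteinases of the MMP, ADAM and ADAMTS families and their inhibitors, the TIMPs. They were taken by symbol: every gene of the deposited table called MMP, ADAM or ADAMTS with a number, or TIMP with a number. The rule found 69 of the 27685 genes in the table: 24 MMPs, 22 ADAMs, 19 ADAMTSs and 4 TIMPs. The rule reads symbols only, but the set was chosen with earlier results of these data known.

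The cells were U251, a long-established line from a human glioblastoma, at passages 14 to 18. A stably expressed short hairpin RNA was either a control (shCTRL) or directed against the long noncoding RNA INCA1 (shINCA1), and both lines were left untreated or stimulated with interferon gamma (IFNγ) for 24 h. Each of the 4 groups held 3 samples of poly(A) RNA, and the untreated cells carried the same hairpins as the stimulated ones. The series asks how INCA1 bears on interferon signalling in tumour cells. All shINCA1 samples carried the hairpin in 1 line, so the loss of the target, any other effect of the hairpin and the history of the line cannot be told apart. The labels do not state whether replicates were separate cultures, so the p-values rest on a spread between samples that may be technical.

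Library totals ran from 46525032 to 66242859 estimated counts, and log2 CPM (counts per scaled library total) of replicates correlated at 0.996 to 0.997. IRF1, an early target of IFNγ, ranged from 638 to 59388 counts between libraries. The symbol INCA1 in the table is that of a protein-coding gene on chromosome 17 (5 to 19 counts per library), not of the targeted noncoding RNA, which was not analysed here. Of the 10 markers of a glioblastoma line VIM, CD44, SOX2, SOX9 and TNC were abundant, while the astrocyte genes GFAP (1.59 CPM in untreated shCTRL, 0.348 in untreated shINCA1) and S100B (2.46 and 0.327 CPM) were low. In the same order NES was at 137 and 33.5 CPM, EGFR at 39.9 and 63.0 and CHI3L1 at 0.0442 and 0.773. Of 9 leukocyte markers 4 were at 0 in all libraries, and the summed level of the list, mostly CD68, was 11.4 to 15.3 CPM. CD68 was at 12.6 CPM in untreated shCTRL and 9.46 in untreated shINCA1 cells, and CSF1R at 0.675 and 1.90.

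Matrix metalloproteinases (MMPs) are zinc-dependent enzymes that are made as inactive precursors and cut collagens, fibronectin, proteoglycans and other proteins around the cell. ADAMs are mostly membrane-bound and release the outer parts of growth factors, receptors and adhesion molecules, a process called shedding, while ADAMTSs are secreted and act on proteoglycans, procollagens and other matrix proteins. TIMPs bind the active sites of MMPs, and of some ADAMs and ADAMTSs, and block them. In glioblastoma the families are studied for their part in invasion of the brain, whose matrix is rich in the proteoglycans that ADAMTSs cut, and many MMP promoters hold a binding motif of AP-1, the dimer of FOS and JUN proteins.

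Promoter sequences were matched for 39 of the 69 genes in the RefSeq promoter table of build GRCh38.p14, and the 250 bases before each start site were searched on both strands. The AP-1 motif TGANTCA was present in 4 of these 39 windows (10.3%), against 6.60% of all 27305 promoters. It lay in the windows of MMP7, MMP10, MMP20 and ADAMTS12. The 3 of them that were expressed well enough to be tested are shown. All 3 differed between the lines, MMP10 and ADAMTS12 upward and MMP7 downward. So did 56.9% of all tested genes in untreated cells and 58.9% with IFNγ. The 150 bases before the start of each gene are printed on the gene's own strand, the minus strand in each case, with the AP-1 match in capitals.
MMP7: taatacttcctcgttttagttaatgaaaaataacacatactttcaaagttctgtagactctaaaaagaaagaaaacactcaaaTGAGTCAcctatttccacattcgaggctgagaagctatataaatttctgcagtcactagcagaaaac
MMP10: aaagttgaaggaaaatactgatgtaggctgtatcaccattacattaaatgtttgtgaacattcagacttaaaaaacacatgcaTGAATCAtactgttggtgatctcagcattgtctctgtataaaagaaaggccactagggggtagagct
ADAMTS12: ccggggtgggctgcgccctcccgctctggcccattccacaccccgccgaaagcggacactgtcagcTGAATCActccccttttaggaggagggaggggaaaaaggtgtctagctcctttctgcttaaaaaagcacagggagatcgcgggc

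The MMP7 window is chr11:102530748-102530897, the MMP10 window chr11:102780629-102780778 and the ADAMTS12 window chr5:33891991-33892140. In MMP7 and MMP10 the motif covers the same bases, -67 to -61 counted from the start site, and in ADAMTS12 it covers -84 to -78. The letters TATAAA stand at -30 to -25 in MMP7 and at -31 to -26 in MMP10. They occur in 7 of the 39 windows and in 11.1% of all promoters. The ETS motif GAGGAAG was found in 3 of the 39 windows (ADAMTS12, MMP7 and ADAM10) and in 11.05% of all promoters. Of motifs read by interferon-driven factors, GAS (TTCNNNGAA) and the ISRE were in 0 of the 39 windows and in 6.78% and 3.07% of all promoters. These matches describe the letters of the windows and no binding was measured.

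Of the 69 genes, 14 were at 0 in all 12 libraries: ADAM2, ADAM5, ADAM6, ADAM7, ADAM18, ADAM29, ADAM33, ADAMTS19, MMP20, MMP21, MMP23A, MMP23B, MMP26 and MMP27. Another 9 had too few counts to be tested, with at most 22 counts in any library: MMP8, MMP9, MMP12, ADAM20, ADAM30, ADAMTS2, ADAMTS5, ADAMTS8 and ADAMTS18. The gelatinase MMP9 reached 6 counts at most and 17 over all libraries, and the aggrecan-cutting ADAMTS5 reached 3 and 6. The other 46 passed the filter on low counts: 15 MMPs, 13 ADAMs, 14 ADAMTSs and all 4 TIMPs. A gene could pass through the group where it was high, so counts over these 46 describe the genes that passed.

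Levels can be compared between genes only per length, as CPM per kilobase (kb) of the canonical transcript, for the 68 genes with a length. ADAM15, a disintegrin metalloproteinase of adhesion sites, was the most abundant in untreated shCTRL cells at 97.3 CPM per kb. It was followed by MMP2 (59.9), TIMP1 (55.1), ADAM9 (50.0) and TIMP2 (42.6), then by ADAM17 (21.2), ADAMTS15 (19.8), ADAM12 (19.3), ADAM19 (18.6) and MMP14 (15.02). ADAMTS15, ADAM12 and ADAM19 lie within 1.3 CPM per kb of each other. In untreated shINCA1 cells MMP2 stood first at 109 CPM per kb, ahead of ADAM15 at 94.1, and ADAMTS15 had gone from 19.8 to 4.20 and MMP7 from 8.42 to 0.691. ADAM15 itself did not differ by the test: its CPM was 298, 274 and 286 in untreated shCTRL and 288, 262 and 279 in untreated shINCA1 samples.

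Summed over a family, MMP transcripts amounted to 87.5 ± 1.76 CPM per kb (SD, n = 3) in untreated shCTRL and 138 ± 0.790 in untreated shINCA1 cells. TIMPs summed to 113 ± 2.75 and 138 ± 1.998, ADAMs to 219 ± 3.15 and 211 ± 3.53, and ADAMTSs to 33.5 ± 1.88 and 13.8 ± 0.239. With IFNγ the sums in shCTRL and shINCA1 cells were 81.6 ± 0.758 and 129 ± 3.33 for MMPs, 114 ± 2.16 and 135 ± 3.35 for TIMPs, 223 ± 0.893 and 218 ± 3.20 for ADAMs, and 23.8 ± 0.860 and 12.2 ± 0.142 for ADAMTSs. The samples of the lines did not overlap in any of the family sums at either treatment. The same held for 62.8% of all tested genes untreated and 66.5% with IFNγ. The sums were not tested, and those of the ADAMs lay close together. Untreated ADAM sums were 216 to 223 in shCTRL and 208 to 215 in shINCA1 samples. With IFNγ they were 222 to 224 and 215 to 221. Each family sum is carried by few genes, the MMP sum mostly by MMP2. In bulk RNA, fewer cells that express a gene and less RNA per cell cannot be told apart.

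**Figure D1:**
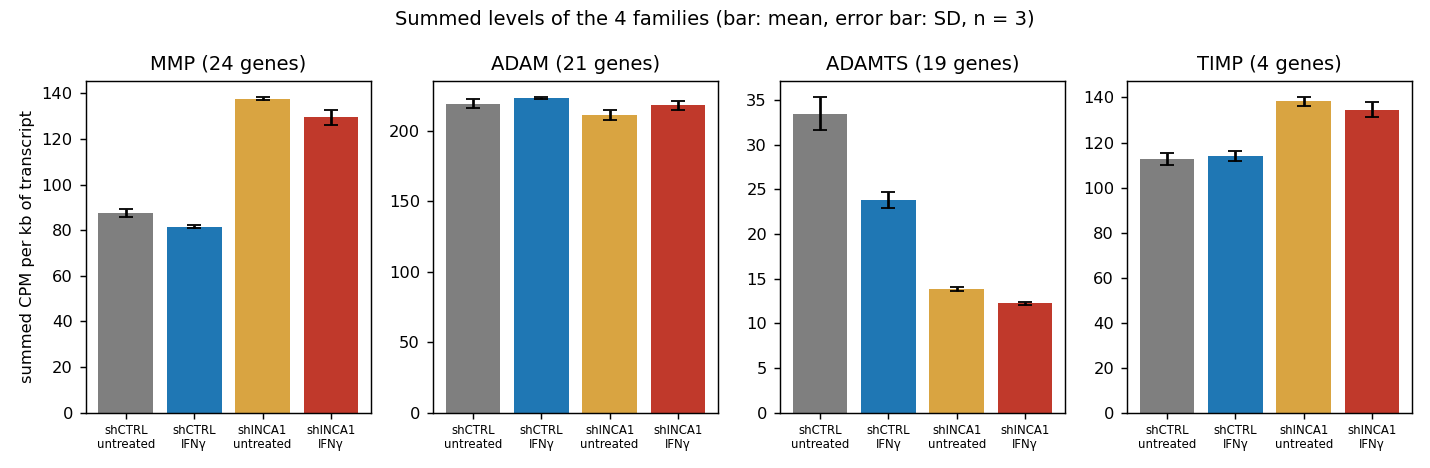
Summed level of each family in CPM per kb of transcript (vertical axis from 0) in the 4 groups (horizontal axis). Bars are means and error bars SDs of 3 samples. The MMP sum was 87.5 in untreated shCTRL and 138 in untreated shINCA1 cells, while the ADAMTS sum was 33.5 and 13.8.

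In shINCA1 cells the stromelysins MMP3 and MMP10, the collagenases MMP1 and MMP13, the gelatinase MMP2 and the membrane-type MMP24 were higher, and the matrilysin MMP7, the aggrecanases ADAMTS4 and ADAMTS15, ADAMTS16 and ADAM12 were lower. The edgeR quasi-likelihood test, with Benjamini-Hochberg adjusted p under 0.05 over 15769 genes as the threshold for calling a gene raised or lowered, called 15 of the 46 tested genes raised and 12 lowered in untreated cells (58.7%). Of all tested genes 56.9% were called in this comparison (27.4% raised, 29.5% lowered), so the share of these families called was close to that background. With IFNγ 18 were raised and 12 lowered (65.2%), against 58.9% of all tested genes (28.7% raised, 30.2% lowered). The samples of the lines did not overlap for 28 of the 46 untreated and 33 with IFNγ, against 62.8% and 66.5% of all tested genes. The median log2 difference over the 46 was 0.17 in untreated and 0.14 in IFNγ-treated cells, against -0.01 and 0.00 over all tested genes. Of the raised genes 13 were raised at both treatments, which is 86.7% of those in untreated and 72.2% of those in IFNγ-treated cells, and of the lowered genes 10 were (83.3% of each). The same shares over all tested genes were not computed, so these are not read as a trait of the families.

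**Figure D2:**
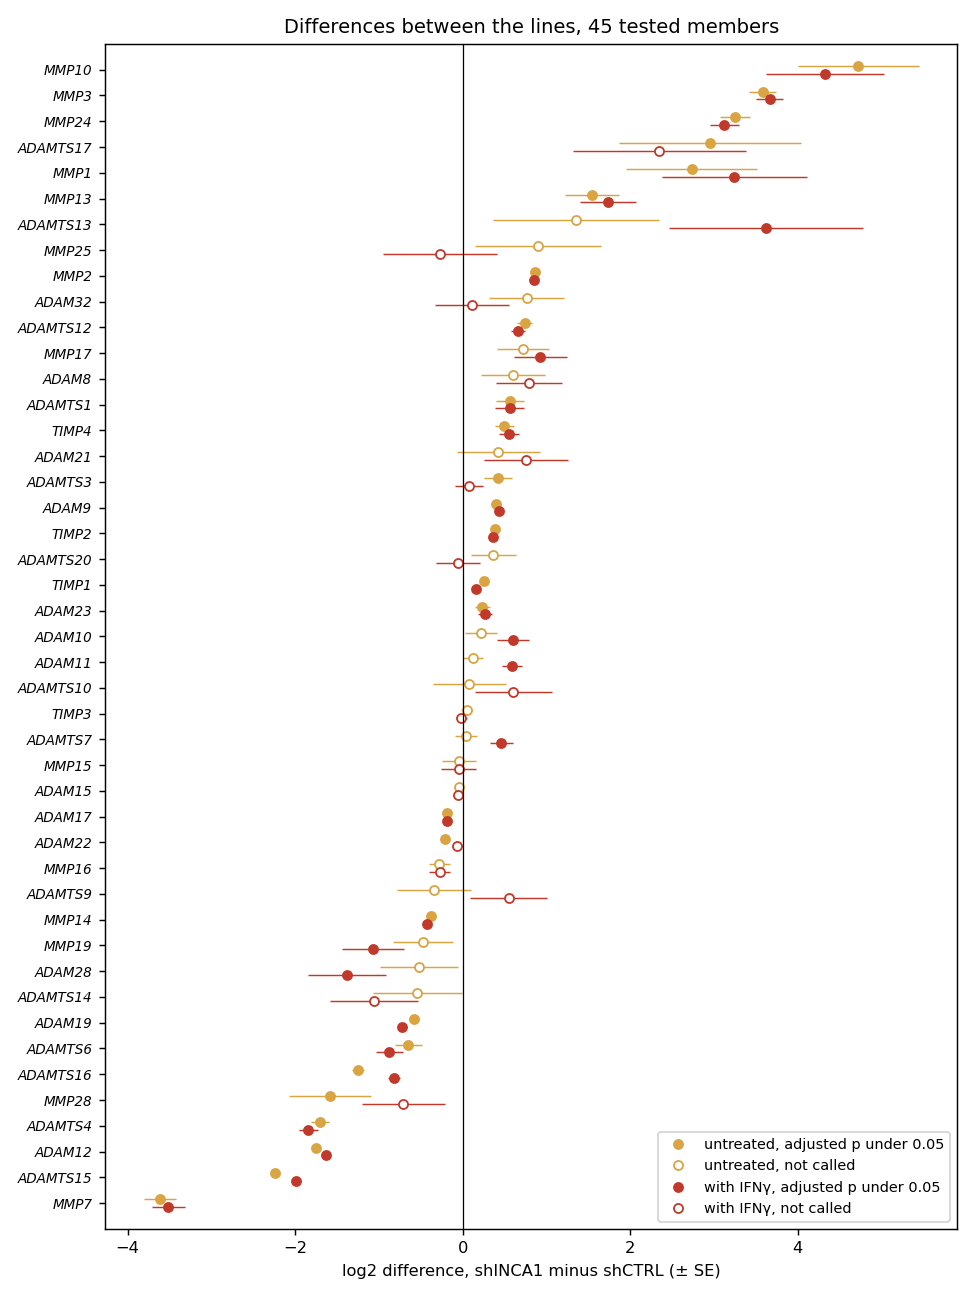
Log2 difference of shINCA1 minus shCTRL (horizontal axis, with the SE of the fit) for 45 tested genes, untreated and with IFNγ. MMP11, which was at 0 in all shINCA1 samples, is not drawn. MMP10, MMP3 and MMP24 lie above 3 and MMP7 lies below -3 at both treatments.

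Stromelysins activate other MMP precursors and cut proteoglycans and fibronectin. MMP3 measured 0.878, 1.51 and 0.899 CPM in untreated shCTRL samples and 12.3, 13.3 and 13.2 in untreated shINCA1 samples. With IFNγ it measured 1.08, 0.925 and 1.11 CPM against 12.6, 13.4 and 13.5. The lines did not overlap, and the log2 difference was 3.58 ± 0.16 (SE, adjusted p = 3.01e-09) untreated and 3.67 ± 0.16 (adjusted p = 2.48e-09) with IFNγ. MMP10 was near the floor in shCTRL cells, at 0, 0.0637 and 0.216 CPM untreated, and reached 2.44, 2.61 and 2.45 CPM in untreated shINCA1 samples. With IFNγ it stood at 0.125, 0.188 and 0 CPM in shCTRL and at 2.25, 1.71 and 2.43 in shINCA1 samples. Its fitted log2 difference was 4.72 ± 0.72 untreated (adjusted p = 0.000133) and 4.32 ± 0.71 with IFNγ (adjusted p = 0.000218). MMP11, the furin-activated stromelysin 3, was at 0 in all 6 shINCA1 samples. Its shCTRL samples held 37 counts untreated and 44 with IFNγ in all, which makes it at least 4.71-fold lower untreated and at least 4.37-fold lower with IFNγ in shINCA1 cells against a floor of 3 counts per library. Untreated shCTRL replicate 3 was itself at 0. Both MMP11 calls depended on single shCTRL libraries: without untreated replicate 1 or 2 the adjusted p was 0.0527 to 0.0579, and without IFNγ replicate 3 it was 0.0548. By limma-voom the untreated call was also lost.

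Interstitial collagenases make the first cut in fibrillar collagen. MMP13 stood at 0.364, 0.255 and 0.432 CPM in untreated shCTRL and at 1.10, 1.05 and 0.949 in untreated shINCA1 samples, a log2 difference of 1.54 ± 0.32 (adjusted p = 0.00138). With IFNγ the difference was 1.73 ± 0.33 (adjusted p = 0.000706). MMP1 was lower still, with 0.0497, 0.127 and 0.162 CPM in untreated shCTRL against 0.575, 0.831 and 0.860 in untreated shINCA1 samples, a log2 difference of 2.74 ± 0.78 (adjusted p = 0.01005). With IFNγ its shCTRL samples held 9 counts in all and its shINCA1 samples 81, a ratio of 9.66 with a 95% exact interval of 4.84 to 21.9 that covers counting error only. All 9 counts came from IFNγ shCTRL replicate 3, and the other 2 IFNγ shCTRL samples were at 0. Without that library MMP1 was at least 9.49-fold higher in shINCA1 cells, against a floor of 3 counts per library. The third collagenase, MMP8, did not pass the filter.

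MMP2, the gelatinase of most connective tissue cells and of glioma cells, was by far the most abundant MMP. It measured 212, 210 and 209 CPM in untreated shCTRL and 385, 383 and 382 in untreated shINCA1 samples. With IFNγ the values were 200, 204 and 201 against 376, 370 and 353 CPM. The groups did not overlap, and the log2 difference was 0.87 ± 0.03 (adjusted p = 1.07e-10) untreated and 0.86 ± 0.03 (adjusted p = 1.27e-10) with IFNγ. Genes beside MMP2 on chromosome 16 were higher in shINCA1 cells as well: the median log2 difference of 20 tested neighbours was 0.23 untreated and 0.46 with IFNγ, and MMP2 less that median was 0.63 and 0.39.

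MMP7, a small matrilysin without the hemopexin domain of most MMPs, went the other way. Its level was 10.3, 8.53 and 9.41 CPM in untreated shCTRL and 0.993, 0.748 and 0.579 in untreated shINCA1 samples. After IFNγ it was 7.86, 8.46 and 7.71 against 0.505, 0.693 and 0.907 CPM. Every shCTRL sample exceeded every shINCA1 sample, with log2 differences of -3.62 ± 0.19 (adjusted p = 1.63e-08) and -3.51 ± 0.20 (adjusted p = 2.44e-08).

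MMP7, MMP10, MMP1, MMP3 and MMP13 are neighbours. The annotation places 9 MMP genes side by side on chromosome 11, in the order MMP7, MMP20, MMP27, MMP8, MMP10, MMP1, MMP3, MMP12 and MMP13, with no other protein-coding gene between the first and the last. MMP7, at one end, was lower in shINCA1 cells, the 4 tested genes MMP10, MMP1, MMP3 and MMP13 were higher, and MMP20, MMP27, MMP8 and MMP12 were at 0 or below the filter. The 20 tested genes nearest to the cluster had a median log2 difference of -0.23 at both treatments. The AP-1 motifs of MMP7 and MMP10 printed above belong to the lowered gene and to 1 of the raised genes of the cluster. MMP1, MMP3 and MMP13 are not among the 39 matched windows, and their promoters were not searched.

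**Figure D3:**
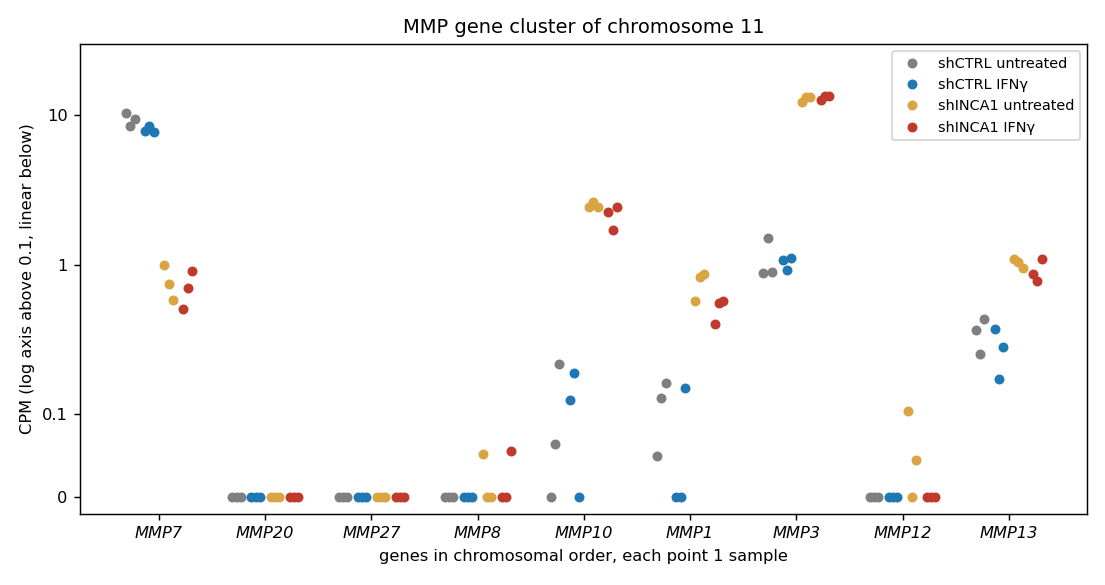
Levels of the 9 MMP genes of the chromosome 11 cluster in chromosomal order (horizontal axis) in CPM (vertical axis, logarithmic above 0.1 and linear below), with 1 point per sample. MMP7 is high in shCTRL samples (7.71 to 10.3 CPM), and MMP10, MMP1, MMP3 and MMP13 are high in shINCA1 samples.

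Membrane-type MMPs sit on the cell surface. MMP14, the chief activator of the MMP2 precursor, was at 58.1, 52.9 and 55.7 CPM in untreated shCTRL and at 44.2, 41.9 and 42.8 in untreated shINCA1 samples. In IFNγ-treated cells it was at 51.6, 49.0 and 48.0 against 38.7, 36.7 and 35.1 CPM. The log2 difference was -0.37 ± 0.05 (adjusted p = 3.57e-05) untreated and -0.43 ± 0.05 (adjusted p = 1.10e-05) with IFNγ. MMP24, known from neural tissue, was at 2.17, 1.57 and 2.21 CPM in untreated shCTRL and at 19.3, 19.4 and 18.4 in untreated shINCA1 samples. Under IFNγ it was at 1.64, 1.33 and 2.31 against 13.5, 17.1 and 15.6 CPM. Its log2 differences were 3.25 ± 0.18 (adjusted p = 1.76e-08) and 3.13 ± 0.18 (adjusted p = 2.50e-08). MMP24 overlaps MMP24OS on the opposite strand, which is not among the symbols of the table. MMP15 and MMP16 did not pass the test, at -0.04 ± 0.20 and -0.28 ± 0.13 in untreated cells. Of the low ones, MMP17 (means of 0.521 and 0.999 CPM with IFNγ) was called raised with IFNγ at 0.93 ± 0.32, and this call was lost without IFNγ shCTRL replicate 1 or 2 or IFNγ shINCA1 replicate 2 (adjusted p 0.0589 to 0.0874).

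Among the remaining MMPs, MMP28 was called lowered in untreated cells by a log2 difference of -1.58 ± 0.49, with 0.745 ± 0.263 CPM in shCTRL and 0.248 ± 0.0997 in shINCA1 cells (SD, n = 3). Without untreated shCTRL replicate 3 or untreated shINCA1 replicate 2 its adjusted p was 0.0588 to 0.0650. MMP19 was called lowered with IFNγ at -1.07 ± 0.37, from 0.763 ± 0.0979 to 0.363 ± 0.0430 CPM. That call was lost without IFNγ shCTRL replicate 1 or 2 and without any 1 of the 3 IFNγ shINCA1 samples (adjusted p 0.0506 to 0.0819).

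**Figure D4:**
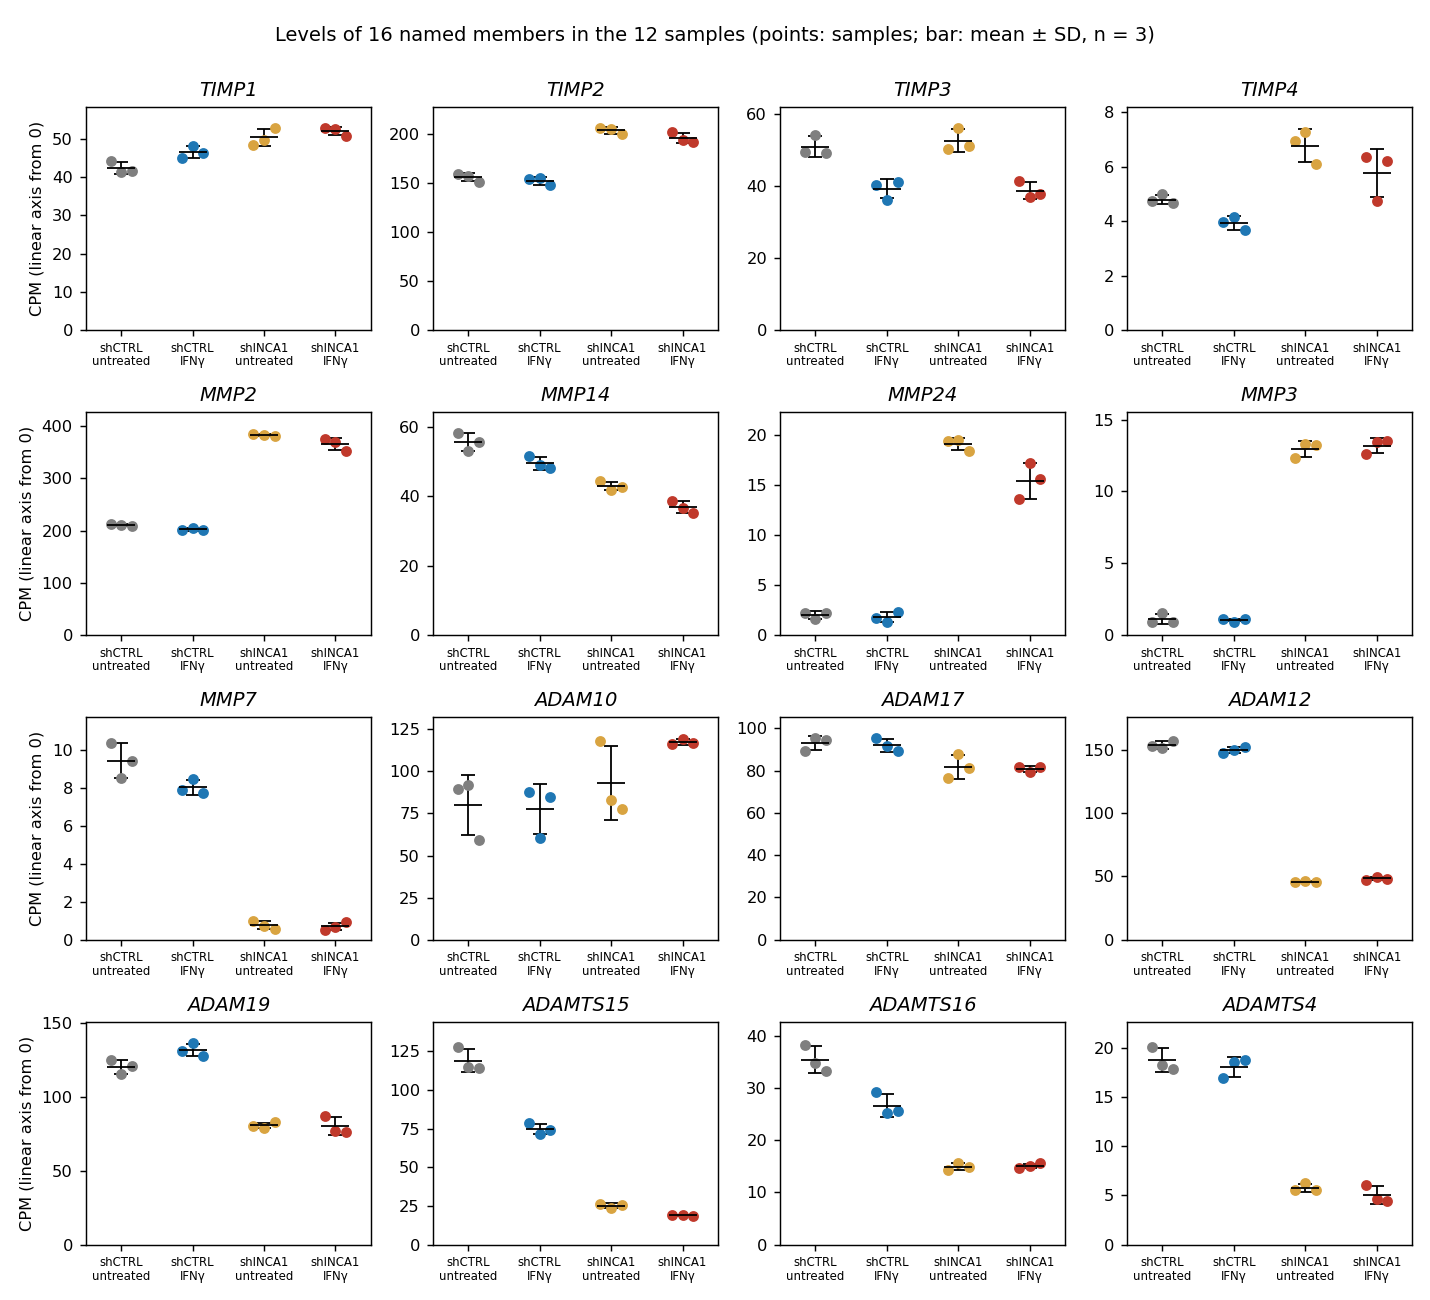
Levels of 16 genes in CPM (vertical axes from 0) in the 4 groups (horizontal axes). Points are samples and bars mean and SD of 3 samples. MMP2 lies near 210 CPM in untreated shCTRL and near 383 in untreated shINCA1 samples, while MMP7, ADAM12 and ADAMTS15 are higher in shCTRL samples.

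Of the 9 tested ADAMs with proteinase activity 1 was raised and 3 lowered in untreated shINCA1 cells, and 2 were raised and 4 lowered with IFNγ, beside 56.9% and 58.9% of all tested genes called in either direction. ADAM12, an ADAM with secreted and membrane forms, was at 153, 151 and 157 CPM in untreated shCTRL and at 45.9, 46.2 and 45.3 in untreated shINCA1 samples. After IFNγ it was at 148, 150 and 152 against 47.4, 49.6 and 48.0 CPM. The log2 difference was -1.75 ± 0.03 (adjusted p = 2.67e-12) and -1.63 ± 0.03 (adjusted p = 3.77e-12). The 20 tested neighbours of ADAM12 on chromosome 10 had a median difference of -0.58 and -0.45, and ADAM12 less that median was -1.16 and -1.19. ADAM19, which releases neuregulins, was at 125, 116 and 121 CPM against 80.4, 79.0 and 82.8 untreated, and at 131, 136 and 128 against 87.1, 76.96 and 76.3 with IFNγ. Its log2 differences were -0.58 ± 0.05 (adjusted p = 1.22e-06) and -0.72 ± 0.05 (adjusted p = 1.73e-07). ADAM9 was higher in shINCA1 cells at both treatments, with means of 206 and 272 CPM untreated and a log2 difference of 0.40 ± 0.03 (adjusted p = 1.82e-07).

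ADAM10 and ADAM17 are the 2 general sheddases, for Notch and cadherins and for TNF and ligands of the epidermal growth factor receptor. ADAM17 was at 89.2, 95.5 and 94.4 CPM in untreated shCTRL and at 76.6, 87.6 and 81.1 in untreated shINCA1 samples. In IFNγ-treated cells it was at 95.2, 91.6 and 89.1 against 81.7, 79.2 and 81.6 CPM. The lines did not overlap at either treatment, and the log2 difference was -0.19 ± 0.05 at both (adjusted p = 0.00552 and 0.00536). ADAM10 varied within groups: it was at 89.3, 91.6 and 59.4 CPM in untreated shCTRL and at 118, 83.2 and 77.5 in untreated shINCA1 samples, which overlap. Under IFNγ it was at 87.5, 60.5 and 85.0 in shCTRL and at 116, 119 and 117 in shINCA1 samples, which do not. The log2 difference was 0.21 ± 0.19 (adjusted p = 0.368) untreated and 0.60 ± 0.19 (adjusted p = 0.0184) with IFNγ, and without the low IFNγ shCTRL replicate 2 the latter lost its call (adjusted p = 0.0724). ADAM28 was called lower with IFNγ, from 2.20, 1.58 and 1.46 to 0.732, 0.510 and 0.759 CPM (log2 difference -1.38 ± 0.47, adjusted p = 0.0243). Its untreated samples, at 1.56, 1.36 and 0.378 against 0.488, 1.18 and 0.623 CPM, overlapped. Without IFNγ shCTRL replicate 1 or IFNγ shINCA1 replicate 1 or 2 its adjusted p was 0.0504 to 0.0819.

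ADAM11, ADAM22 and ADAM23 lack the catalytic site and serve as cell-surface binding partners in neural tissue, ADAM22 and ADAM23 as receptors of LGI1. ADAM22 was called lower in untreated shINCA1 cells, at 22.8, 22.3 and 22.3 against 19.7, 19.9 and 18.8 CPM (log2 difference -0.21 ± 0.05, adjusted p = 0.00243), and less the median of its neighbours on chromosome 7 the difference was -0.09. With IFNγ ADAM22 was at 19.2, 19.0 and 18.3 against 17.2, 18.5 and 18.2 CPM and was not called (-0.07 ± 0.05, adjusted p = 0.240). ADAM11 was called higher with IFNγ, at 3.88, 4.48 and 4.27 against 6.22, 5.83 and 6.93 CPM (0.59 ± 0.12, adjusted p = 0.00114). Untreated, it was at 5.88, 5.52 and 5.34 against 6.98, 5.02 and 6.25 CPM. ADAM23 was called higher at both treatments, by 0.24 ± 0.09 and 0.27 ± 0.09, and by 0.47 and 0.63 over its neighbours on chromosome 2. The untreated ADAM23 call was lost without any 1 untreated shCTRL sample, IFNγ shCTRL replicate 1, untreated shINCA1 replicate 2 or 3 or IFNγ shINCA1 replicate 2 (adjusted p 0.0507 to 0.146), and the IFNγ call without IFNγ shCTRL replicate 3 or IFNγ shINCA1 replicate 1 (0.0786 to 0.0829).

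The ADAMTSs that cut hyaluronan-binding proteoglycans such as aggrecan, versican and brevican included the most strongly lowered members of that family. ADAMTS15 was at 128, 115 and 114 CPM in untreated shCTRL and at 26.6, 23.7 and 25.3 in untreated shINCA1 samples. After IFNγ it was at 78.5, 71.9 and 74.3 against 18.9, 19.1 and 18.6 CPM. The log2 difference was -2.24 ± 0.06 (adjusted p = 4.19e-11) and -1.99 ± 0.06 (adjusted p = 9.21e-11). ADAMTS4 was at 20.1, 18.2 and 17.9 CPM against 5.54, 6.24 and 5.53 untreated, and at 16.9, 18.5 and 18.7 against 6.05, 4.63 and 4.43 with IFNγ. Its differences were -1.70 ± 0.11 (adjusted p = 7.22e-08) and -1.84 ± 0.11 (adjusted p = 3.88e-08). ADAMTS1, of the same group, was higher in shINCA1 cells, at 3.33, 2.36 and 3.69 against 3.87, 4.62 and 5.41 CPM untreated and at 2.41, 2.10 and 2.74 against 3.76, 3.51 and 3.43 with IFNγ. Its differences of 0.57 ± 0.17 (adjusted p = 0.0140) and 0.56 ± 0.18 (adjusted p = 0.0161) depended on single libraries. Without untreated shCTRL replicate 2 or untreated shINCA1 replicate 3 the untreated adjusted p was 0.0556 to 0.0716, and without IFNγ shCTRL replicate 2 that with IFNγ was 0.0637.

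Other ADAMTSs moved both ways. ADAMTS16 was at 38.3, 34.8 and 33.4 CPM in untreated shCTRL and at 14.4, 15.7 and 14.8 in untreated shINCA1 samples. In IFNγ-treated cells it was at 29.2, 25.2 and 25.5 against 14.7, 15.01 and 15.6 CPM. Its log2 difference was -1.25 ± 0.07 (adjusted p = 2.39e-08) untreated and -0.82 ± 0.07 (adjusted p = 8.90e-07) with IFNγ. ADAMTS6 was at 2.37, 2.57 and 3.22 against 1.71, 1.55 and 1.94 CPM untreated and at 3.30, 3.75 and 3.54 against 2.25, 1.94 and 1.57 with IFNγ. It differed by -0.65 ± 0.16 (adjusted p = 0.00499), or -0.42 less its neighbours on chromosome 5, and by -0.88 ± 0.16 (adjusted p = 0.000583). ADAMTS12, which cuts cartilage oligomeric matrix protein, was at 12.3, 14.5 and 12.3 against 20.2, 21.9 and 23.1 CPM untreated and at 12.9, 13.2 and 11.7 against 18.4, 20.4 and 21.1 with IFNγ. It was raised by 0.74 ± 0.08 (adjusted p = 1.18e-05) and 0.66 ± 0.08 (adjusted p = 2.97e-05).

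The remaining ADAMTS calls were at low levels or near the threshold. ADAMTS3, a procollagen N-proteinase, was at 1.91, 2.29 and 2.23 against 2.96, 2.98 and 2.64 CPM in untreated samples, a log2 difference of 0.42 ± 0.17 with an adjusted p of 0.04997 just under the threshold. Leaving out any 1 of 10 libraries, that is all but IFNγ shINCA1 replicates 2 and 3, ended this call (adjusted p 0.0525 to 0.164), as did testing without a count filter or with DESeq2. Less its neighbours on chromosome 4 the ADAMTS3 difference was 0.19, and with IFNγ, at 2.18, 2.45 and 2.74 against 2.44, 2.08 and 3.26 CPM, it was 0.08 ± 0.17. ADAMTS7 was called higher with IFNγ, at 4.88, 5.14 and 4.25 against 7.02, 6.71 and 5.94 CPM (0.46 ± 0.13, adjusted p = 0.00978), whereas its untreated samples, at 7.11, 7.47 and 5.76 against 8.17, 6.58 and 6.17 CPM, overlapped.

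The last 2 genes of this family had only a few counts in shCTRL cells. ADAMTS17 had 9 counts in the untreated shCTRL and 85 in the untreated shINCA1 samples, a ratio of 8.33 (95% exact interval 4.19 to 18.8). Its call was lost without a count filter and without any 1 untreated sample of either line or IFNγ shINCA1 replicate 1 or 2 (adjusted p 0.0511 to 0.112 for the libraries). ADAMTS13, the enzyme that cuts von Willebrand factor, had 6 and 73 counts with IFNγ, a ratio of 13.1 (5.72 to 36.7). Its call was lost without IFNγ shCTRL replicate 2 or IFNγ shINCA1 replicate 3 (adjusted p 0.0540 to 0.0629). Untreated ADAMTS13 samples of the lines overlapped and it was not called (log2 difference 1.35 ± 0.99, adjusted p = 0.271). The intervals of ADAMTS17 and ADAMTS13 cover counting error only.

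Of the inhibitors, 3 were modestly higher in shINCA1 cells and TIMP3 was not called. Of all tested genes 27.4% were raised in untreated cells and 28.7% with IFNγ (56.9% and 58.9% called in either direction). TIMP1, which inhibits most secreted MMPs, was at 44.1, 41.3 and 41.7 CPM in untreated shCTRL and at 48.5, 49.8 and 52.8 in untreated shINCA1 samples. Under IFNγ it was at 45.1, 48.2 and 46.3 against 53.0, 52.5 and 50.9 CPM. The log2 difference was 0.25 ± 0.04 (adjusted p = 0.000353) and 0.16 ± 0.04 (adjusted p = 0.00620), and less its neighbours on the X chromosome it was 0.16 and 0.10. TIMP2, which also takes part in the activation of MMP2 by MMP14, was at 159, 157 and 151 against 205, 205 and 199 CPM untreated and at 154, 155 and 148 against 202, 193 and 192 with IFNγ. Its differences were 0.39 ± 0.03 (adjusted p = 6.29e-07) and 0.36 ± 0.03 (adjusted p = 1.06e-06), or 0.25 and 0.20 less its neighbours on chromosome 17.

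TIMP4 was at 4.74, 4.99 and 4.66 against 6.93, 7.28 and 6.11 CPM untreated and at 3.96, 4.15 and 3.67 against 6.34, 4.75 and 6.20 with IFNγ. The lines did not overlap, with differences of 0.50 ± 0.11 (adjusted p = 0.00244) and 0.55 ± 0.11 (adjusted p = 0.00129). The untreated difference was 0.77 over its neighbours on chromosome 3. TIMP3, which binds to the matrix and inhibits ADAM17 and ADAMTSs as well as MMPs, was at 49.6, 54.3 and 49.1 against 50.4, 56.2 and 51.3 CPM untreated and at 40.3, 36.2 and 41.2 against 41.3, 36.9 and 37.9 with IFNγ. The samples of the lines overlapped at both treatments, and the differences were 0.05 ± 0.07 (adjusted p = 0.580) and -0.02 ± 0.07 (adjusted p = 0.824). TIMP1, TIMP3 and TIMP4 each lie within a synapsin gene on the opposite strand, of which SYN1 had 40 to 94, SYN3 at most 24 and SYN2 at most 6 counts per library.

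IFNγ lowered several of these genes and raised none by the edgeR test. In shCTRL cells 7 of the 46 were called lowered (15.2%) and 0 raised, against 7.51% of all tested genes lowered and 9.72% raised (17.2% in either direction). In shINCA1 cells 3 were lowered (6.52%) and 0 raised, against 2.95% and 6.13% of all tested genes (9.08% in either direction). At an unadjusted p under 0.05 the raised genes numbered 4 in shCTRL and 1 in shINCA1 cells, beside 14.3% and 11.1% of all tested genes. DESeq2 called 1 raised in shCTRL (TIMP1, adjusted p = 0.0462) and 0 in shINCA1 cells, and limma-voom called 0 in both. Without IFNγ shINCA1 replicate 1, edgeR called ADAM19 raised in shCTRL cells (0.13 ± 0.04, adjusted p = 0.0362). Treated and untreated samples did not overlap for 19 of the 46 in shCTRL and 10 in shINCA1 cells, against 33.4% and 24.9% of all tested genes. The median log2 response over the 46 was -0.06 in shCTRL and -0.09 in shINCA1 cells, against -0.01 and 0.00 over all tested genes.

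**Figure D5:**
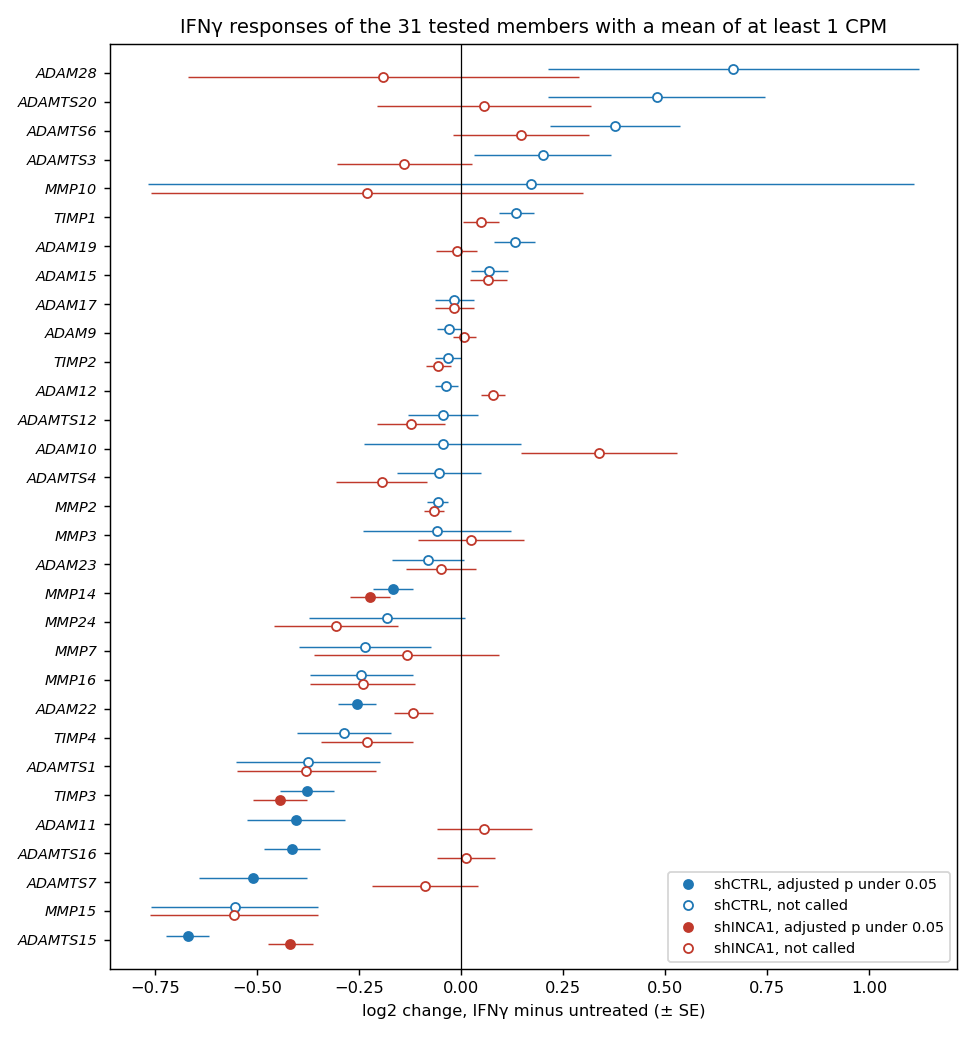
Log2 response to IFNγ (horizontal axis, with the SE of the fit) in shCTRL and shINCA1 cells for the 31 tested genes with a mean of at least 1 CPM. ADAMTS15 has the largest called decrease in shCTRL cells (-0.67), and TIMP3 (-0.38 and -0.44), ADAMTS15 and MMP14 were lowered in both lines.

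The 3 genes lowered in shINCA1 cells, ADAMTS15, TIMP3 and MMP14, were all among the 7 lowered in shCTRL cells. How many of all tested genes were lowered in both lines was not computed. From the values above, ADAMTS15 fell in every IFNγ sample below every untreated one in both lines, by -0.67 ± 0.05 (adjusted p = 2.09e-06) in shCTRL and -0.42 ± 0.06 (adjusted p = 0.000335) in shINCA1 cells. TIMP3 likewise did not overlap between treatments, with responses of -0.38 ± 0.07 (adjusted p = 0.00164) and -0.44 ± 0.07 (adjusted p = 0.000819). MMP14 responded by -0.17 ± 0.05 (adjusted p = 0.0338) and -0.22 ± 0.05 (adjusted p = 0.0123). The MMP14 call in shCTRL cells was lost without untreated shCTRL replicate 1 or 3 or IFNγ shCTRL replicate 2 or 3 (adjusted p 0.0702 to 0.124), without a count filter, and in a fit of the 2 groups alone.

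The other 4 were called in shCTRL cells alone. In shINCA1 cells ADAM22 fell too, its samples not overlapping between treatments, but was not called (-0.12 ± 0.05, adjusted p = 0.183). Its responses did not differ between the lines by the test (0.14 ± 0.07, adjusted p = 0.466). ADAMTS7 (-0.09 ± 0.13) and ADAM11 (0.06 ± 0.12) were not called in shINCA1 cells either. Further differences between the responses are given below. In shCTRL cells ADAMTS16 changed by -0.41 ± 0.07 (adjusted p = 0.00115), its untreated samples lying above all IFNγ samples. ADAM22 changed by -0.25 ± 0.05 (adjusted p = 0.00232). ADAMTS7 changed by -0.51 ± 0.13 (adjusted p = 0.0194), and the call was lost without untreated shCTRL replicate 1 or 2 or IFNγ shCTRL replicate 3 (0.0557 to 0.0819). ADAM11 changed by -0.40 ± 0.12 (adjusted p = 0.0375). The ADAM11 call was lost without any 1 untreated shCTRL sample, IFNγ shCTRL replicate 1 or 3 or IFNγ shINCA1 replicate 1 (0.0521 to 0.0970), without a count filter and by limma-voom. Without untreated shCTRL replicate 1 the lowered genes in shCTRL cells numbered 4 instead of 7, and without IFNγ shINCA1 replicate 1 those in shINCA1 cells numbered 5 instead of 3, the further ones being ADAMTS4 (adjusted p = 0.0393) and MMP15 (0.0313). MMP15 responded by -0.55 ± 0.21 in shCTRL and -0.56 ± 0.21 in shINCA1 cells with all samples (adjusted p = 0.0930 and 0.141), and in shCTRL cells it was called in a fit of the 2 groups alone (0.0405) or without IFNγ shINCA1 replicate 1 or 3 (0.0493 and 0.0346).

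MMP2, TIMP2, ADAM10 and ADAM17 did not pass the test in either line. MMP2 responded by -0.06 ± 0.03 in shCTRL and -0.07 ± 0.03 in shINCA1 cells (adjusted p = 0.162 and 0.158). With upper-quartile factors MMP2 was called lowered in both (-0.11 and -0.10, adjusted p = 0.00947 and 0.0259), and by DESeq2 in shINCA1 cells (adjusted p = 0.0200). TIMP2 responded by -0.03 ± 0.03 and -0.06 ± 0.03. ADAM17 responded by -0.02 ± 0.05 in both lines, and ADAM10 by -0.05 ± 0.19 and 0.34 ± 0.19. TIMP1 responded by 0.14 ± 0.04 in shCTRL cells (adjusted p = 0.0530) and 0.05 ± 0.04 in shINCA1 cells (adjusted p = 0.641), and TIMP4 by -0.29 ± 0.12 and -0.23 ± 0.11. The strongly line-dependent MMP3, MMP7 and MMP24 had responses between -0.31 ± 0.15 and 0.02 ± 0.13, none of them called by edgeR. By limma-voom MMP24 was called lowered in shINCA1 cells (-0.32, adjusted p = 0.0411), where its treated samples lay below the untreated ones. The 2 lines share no samples in these comparisons, while each response shares its samples with the comparisons of the lines.

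The test of the difference between the responses of the lines called 0 of the 46 genes in either direction, against 1.71% of all tested genes (0.615% more positive and 1.10% more negative in shINCA1). At an unadjusted p under 0.05 it gave 5 more positive and 0 more negative responses in shINCA1 cells, while 5.86% and 5.56% of all tested genes passed that threshold in these directions. These 5, which were picked by that p after the values were seen, were ADAMTS16, ADAMTS15, ADAM12, ADAM11 and ADAMTS7. ADAMTS16 came nearest to the threshold: its response was -0.41 in shCTRL and 0.01 ± 0.07 in shINCA1 cells, a difference of 0.43 ± 0.10 (adjusted p = 0.0572). It passed without IFNγ shCTRL replicate 1 (0.51, adjusted p = 0.0221) and by DESeq2 (adjusted p = 0.0137), which called 1 gene with 4 positive and 1 negative at an unadjusted p under 0.05. Limma-voom called 0, with 5 and 0 unadjusted. The differences of ADAMTS15 (0.25 ± 0.08), ADAM11 (0.46 ± 0.17) and ADAMTS7 (0.42 ± 0.19) had adjusted p of 0.173, 0.275 and 0.404.

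Genes that act on or beside these enzymes were read from 5 lists. Of 26 activators, chaperones, inhibitors and clearance receptors, 23 were tested. The lines differed in 15 of them untreated (9 raised, 6 lowered in shINCA1) and in 16 with IFNγ (10 raised, 6 lowered), where 56.9% and 58.9% of all tested genes were called. PLAUR, the receptor that gathers the plasminogen activator urokinase at the cell surface, had a mean of 37.9 CPM in untreated shCTRL and 97.9 in untreated shINCA1 cells (log2 difference 1.37 ± 0.04, adjusted p = 1.43e-10). A2M, a protein that traps proteinases of every class, was at 7.07 and 0.628 CPM (-3.48 ± 0.14, adjusted p = 1.50e-09), and CD44, a docking site for MMPs at the cell surface, at 656 and 883 CPM (0.43 ± 0.02).

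IFNγ raised 5 and lowered 5 of these 23 in shCTRL cells and raised 3 and lowered 4 in shINCA1 cells (17.2% and 9.08% of all tested genes were called in either direction). A2M rose by 2.55 ± 0.11 and 3.45 ± 0.14, PLAUR rose by 0.72 ± 0.04 and 0.41 ± 0.04, and the plasminogen activator PLAT changed by -0.50 ± 0.04 and -0.22 ± 0.04. The responses of A2M and PLAUR differed between the lines, by 0.91 ± 0.18 (adjusted p = 0.0263) and -0.31 ± 0.06 (adjusted p = 0.0192). The A2M difference lost its call without untreated replicate 1 or 2 of either line or IFNγ shINCA1 replicate 2 or 3 (0.0574 to 0.0893), by limma-voom, and with counts divided by 3. The PLAUR difference lost it without untreated shCTRL replicate 2, IFNγ shCTRL replicate 2 or 3, untreated shINCA1 replicate 1 or IFNγ shINCA1 replicate 2 (0.0532 to 0.0670).

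Of 22 matrix substrates 17 were tested. In shINCA1 cells 11 of them were lowered and 3 raised untreated, and 12 lowered and 2 raised with IFNγ (56.9% and 58.9% of all tested genes were called), with a median log2 difference of -1.03 and -1.02 against -0.01 and 0.00 over all tested genes. Fibronectin (FN1) was at 296 CPM in untreated shCTRL and 62.5 in untreated shINCA1 cells (-2.24 ± 0.05, adjusted p = 9.46e-12). Versican (VCAN), a substrate of ADAMTS4 and ADAMTS15, was at 147 and 21.9 CPM (-2.75 ± 0.08), and SPARC was at 900 and 440 CPM (-1.03 ± 0.02). IFNγ raised 4 and lowered 1 in shCTRL and raised 2 and lowered 1 in shINCA1 cells, beside 17.2% and 9.08% of all tested genes called. Tenascin C (TNC) rose by 0.45 ± 0.03 and 0.24 ± 0.03, a difference of -0.21 ± 0.04 (adjusted p = 0.0359). The TNC difference lost its call without any 1 of 8 libraries, that is all but untreated shCTRL replicate 3, IFNγ shCTRL replicate 1 and untreated shINCA1 replicates 2 and 3 (0.0634 to 0.128).

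Among 31 proteins that ADAMs are known to shed, 28 were tested. The lines differed in 22 untreated (13 raised, 9 lowered in shINCA1) and 25 with IFNγ (13 raised, 12 lowered), beside 56.9% and 58.9% of all tested genes. The Notch ligand JAG1 was at 420 CPM in untreated shCTRL and 165 in untreated shINCA1 cells (-1.35 ± 0.04), the receptor MET at 194 and 422 CPM (1.12 ± 0.03) and the interleukin 6 receptor IL6R at 10.9 and 52.4 CPM (2.26 ± 0.06). IFNγ raised 11 and lowered 5 in shCTRL cells and raised 8 and lowered 4 in shINCA1 cells, again beside 17.2% and 9.08% of all tested genes. The stress ligand MICB rose by 0.98 ± 0.05 and 0.81 ± 0.05 and the TNF receptor TNFRSF1A by 0.50 ± 0.03 and 0.39 ± 0.03. The response was lower in shINCA1 cells for 4 of the 28 genes, beside 1.10% of all tested genes. Among the 4 were NRG1 (difference -0.58 ± 0.06, adjusted p = 0.000527), CX3CL1 (-0.67 ± 0.10, adjusted p = 0.00461) and CXCL16 (-0.42 ± 0.08, adjusted p = 0.0206). The CXCL16 call was lost without IFNγ replicate 2 of either line, IFNγ shCTRL replicate 3, untreated shINCA1 replicate 3 or IFNγ shINCA1 replicate 1 (0.0537 to 0.0709).

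All 22 transcription factors that act at MMP promoters were tested. IFNγ raised 11 and lowered 1 in shCTRL cells and raised 8 and lowered 0 in shINCA1 cells. Of all tested genes 9.72% were raised and 7.51% lowered in shCTRL cells, and 6.13% and 2.95% in shINCA1 cells. IRF1 rose by 5.96 ± 0.06 and 5.75 ± 0.06. Between the untreated lines 7 were higher and 6 lower in shINCA1 cells, beside 27.4% and 29.5% of all tested genes. SNAI2 was at 21.3 and 1.86 CPM (-3.52 ± 0.12, adjusted p = 4.60e-10) and the AP-1 subunit FOSL1 at 36.4 and 74.9 CPM (1.04 ± 0.06, adjusted p = 2.84e-08). The response of ETV5 differed, by -0.42 ± 0.04 (adjusted p = 0.000413). Of 15 ADAMTS-like and astacin proteins 10 were tested, of which 2 were higher and 4 lower in untreated shINCA1 cells, beside 27.4% and 29.5% of all tested genes. THSD4 (7.75 and 26.2 CPM, 1.76 ± 0.08) was among the higher ones and ADAMTSL1 (8.53 and 4.01 CPM, -1.09 ± 0.12) among the lower ones.

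Summed levels of marker lists of other cell types differed between the lines, but not every gene went with the sum of its list. The fibroblast and pericyte list, mostly PDGFRA, COL1A2 and COL1A1, summed to 172 to 181 CPM in untreated shCTRL and 44.6 to 46.4 in untreated shINCA1 samples, with COL1A2 (41.5 CPM in untreated shCTRL) at 0 in all shINCA1 samples. PDGFRB, of the same list, was higher in shINCA1 cells (4.49 and 6.52 CPM untreated, 5.53 and 6.91 with IFNγ). The epithelial list, nearly all of it KRT18, summed to 94.8 to 99.7 and 244 to 267 CPM, with EPCAM and CDH1 near 0 in all groups. Its genes KRT5 (1.53 and 1.13 CPM untreated) and CLDN7 (0.510 and 0.287) were lower in shINCA1 cells. The endothelial list, mostly KDR, summed to 7.95 to 8.87 and 11.4 to 12.8 CPM. With IFNγ the fibroblast list summed to 165 to 169 and 39.1 to 42.7 CPM, the epithelial list to 92.0 to 98.4 and 272 to 273, and the endothelial list to 10.7 to 11.5 and 16.2 to 18.9. Their part in the differences of MMPs, ADAMTSs and TIMPs was not tested.

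The library kit keeps strand, but whether the counting used it is not stated in the labels or notes, so genes that overlap on opposite strands are uncertain. Besides the TIMPs this applies among others to ADAMTS7, which overlaps the abundant MORF4L1 (23096 to 36498 counts per library), to ADAM19 beside CYFIP2 (2957 to 6564) and ADAMTS13 beside REXO4 (2301 to 3361). It also applies to ADAM17 beside IAH1 (686 to 1406) and ADAM9 beside TM2D2 (1167 to 1622).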

How the data were processed

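Poly(A) RNA of U251 cells was sequenced from a stranded kit in 12 samples, 3 in each of 4 groups, which were assigned from the titles and treatment labels. The deposited table holds estimated counts (expected counts) per gene symbol as unscaled whole numbers. The tools named in the submitters' processing notes are FastQC, Trimmomatic, HISAT2 and StringTie, with build hg19. Tool versions, annotation, counting step and strand handling: not given in the sources used here. Among the deposited counts the value 3 occurs 5790 times and 6 occurs 4120 times, while 4 occurs 1317 times, so 1 fragment appears to be worth about 3 units. Counting intervals are narrower than they should be, and the floor of 3 counts is about 1 fragment.

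The test was edgeR 4.0.16 under R 4.3.3 (filterByExpr, TMM factors, glmQLFit and glmQLFTest, all 12 samples in 1 fit), with two-sided p adjusted by Benjamini-Hochberg over 15769 tested genes and a threshold of 0.05. The common biological coefficient of variation was 10.6%. Standard errors are the log2 change divided by the square root of F. CPM are TMM-scaled. The scripts were tested on simulated data. Library totals are given in the report.

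The genes and lists were chosen with earlier results of these data known. Values in every sample are given for the TIMPs, MMP2, MMP14, ADAM10, ADAM17 and up to 8 raised and 8 lowered genes per comparison by log2 change with a mean of at least 1 CPM. Up to 3 genes per list and comparison are named by p. A gene this picks and an overlapping gene are not reported here. Low MMPs and ADAMTSs outside this rule (MMP1, MMP11, MMP13, MMP17, MMP19, MMP28, ADAMTS13 and ADAMTS17), ADAM9, ADAM15 and ADAM23 were named after their values were seen, and TLL1, which the rule names and which was at 0 in untreated shINCA1 cells, is given no fold. Gene order and lengths come from GRCh38 annotations, with no coordinates carried over from hg19.

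Alternatives were DESeq2 1.42.0 size factors and Wald test, upper-quartile factors, no filter, a filter of 5 CPM in 3 samples, limma-voom (limma 3.58.1), the replicate number as a block, the 2 groups alone, an adjusted p of 0.01, counts divided by 3, subtraction of the median of 10 tested genes on each side, and each library left out. The pseudocount settings planned for normalized values did not apply to counts and were left out.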

Additional observations from a re-analysis of the deposited data

How the results depend on the processing

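None of the 67 gene calls reversed in 1449 alternative values, which do not include the subtraction of the neighbour median. In 1356 of them the call held, and in 93 it was lost, 62 of these on leaving out 1 library. The genes raised by IFNγ in shCTRL cells numbered 0, or 1 with a filter of 5 CPM, with DESeq2 and with counts divided by 3. The lowered genes there numbered 7, or 4 at an adjusted p of 0.01, and 4 to 8 with 1 library left out. Leaving out 1 library gave 0 to 1 raised there, 3 to 5 lowered genes in shINCA1 cells, and 0 to 1 positive differences of responses, where DESeq2 also gave 1 against 0. The 15 genes raised between untreated lines became 9 with the filter of 5 CPM, under which 24 genes were tested. Values that were not called changed sign: TIMP3 between the lines with IFNγ (-0.02) was 0.0180 with upper-quartile factors, 0.00122 with counts divided by 3 and -0.0698 to 0.0183 with 1 library left out. On leaving out 1 library the ADAM10 response in shCTRL cells ranged from -0.222 to 0.0919, and the ADAM17 response from -0.0606 to 0.00574 in shCTRL and from -0.0666 to 0.0340 in shINCA1 cells. The cause was not tested.

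Replicate numbers did not pair the samples, since deviations of samples with the same number correlated at -0.0456 to 0.141. With the number as a replicate block the lowered genes were 6 with IFNγ in shCTRL cells and 3 in shINCA1 cells, 15 genes were raised and 11 lowered between untreated lines, 18 and 11 with IFNγ, and 0 differed in response. The block ended 5 calls, those of MMP11 between the lines at both treatments, ADAMTS3 between the untreated lines, the ADAM11 response in shCTRL cells and the difference of TNC responses (adjusted p 0.0517 to 0.0615). Genes below about 1 CPM rest on few fragments.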
